A study of Oryctolagus cuniculus with 4 samples.

Results

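The 3 genes described are COL1A1, COL1A2 and COL3A1, which encode the chains of type I and type III collagen. They were chosen by gene symbol from a deposited table of 20294 genes, and each was represented by 1 annotated transcript. RNA came from whole semitendinosus tendon, a hamstring tendon that surgeons use to rebuild ligaments. The donors were 4 New Zealand White rabbits, all female and 193 days old. Each rabbit gave 1 tendon, and no strain, genotype or treatment set one tendon apart from another, so the 4 form a single group of intact tendon. Surface muscle had been scraped away before freezing. Allografts are named in the title and autografts in the source field, while the descriptions say intact, the word used here. The libraries held between 19759696 and 30646052 estimated counts. No pair of libraries agreed within sampling noise. Tendon 4 held far more fast muscle RNA than the others (MYH2, a fast myosin gene, at 240 TPM against at most 1.01 TPM). Tendon 4 was neither the highest nor the lowest for COL1A1 or COL1A2, so leaving it out could not change their range (highest over lowest tendon). The range of COL3A1 fell from 2.17- to 1.70-fold without it. The mean log2 ratio of COL1A1 to COL3A1 went from 2.42 to 2.75, and the mean share of TPM in the 3 chains from 1.83% to 2.00%.

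Type I collagen is the load-bearing protein of tendon. Its molecule is a heterotrimer in which COL1A1 chains outnumber the COL1A2 chain. Type III collagen is a homotrimer of COL3A1 chains, forms thinner fibrils, and is known from the tendon sheath, vessel walls, muscle connective tissue and healing tendon. Procollagen chains are hydroxylated and folded in the endoplasmic reticulum, exported, trimmed of their propeptides by proteases, assembled into fibrils with minor collagens and small proteoglycans, and crosslinked by lysyl oxidases.

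In the build OryCun2.0, COL1A1 (ENSOCUG00000012881.2) lies on the plus strand of chromosome 19 from 37474894 to 37582234. COL1A2 (ENSOCUG00000012264.3) lies on the minus strand of chromosome 10 from 34497268 to 34534132. COL3A1 (ENSOCUG00000014988.3) lies on the plus strand of chromosome 7 from 129297505 to 129341817. The annotated transcripts were 3585, 5792 and 6179 bases long, so the COL1A1 model had 61.9% of the length of the COL1A2 model. Levels are therefore given as TPM (estimated counts divided by annotated length and scaled to the same fixed total in each tendon), and ratios are also given from counts without length correction. The COL1A1 model spanned 107341 bases, against 36865 for COL1A2 and 44313 for COL3A1. Its span overlapped 6 other annotated genes, 5 of them wholly within it, and 3 of the 6 lay on the same strand. They included SGCA (a muscle sarcoglycan gene), PDK2 (a pyruvate dehydrogenase kinase gene), SAMD14 and ITGA3 (an integrin gene). These 6 genes had 16775 estimated counts over all tendons together, while COL1A1 alone had at least 201536 in each tendon. COL1A2 overlapped no other annotated gene. COL3A1 overlapped none either, and its nearest neighbour was COL5A2, a type V collagen gene, 15424 bases away on the opposite strand. Whether the use of strand was part of the counting is not given in the sources used here.

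COL1A1 was measured at 15218, 8838, 3672 and 5354 TPM in tendons 1 to 4, which averaged 8270 ± 5107 TPM (SD, n = 4). It was highest in tendon 1 and lowest in tendon 3. COL1A2 had 15234, 9494, 3871 and 5944 TPM, a mean of 8636 ± 4974 TPM (SD, n = 4), and its tendons stood in the same order as those of COL1A1. COL3A1 had 1120, 918, 1563 and 1996 TPM, a mean of 1399 ± 480.5 TPM (SD, n = 4). It was highest in tendon 4 and lowest in tendon 2, so the tendon with the most type I RNA was not the one with the most type III RNA. The order of the means was COL1A2, COL1A1 and COL3A1, and the means of the type I chains differed by far less than their SD over tendons. The tendons of each chain kept this order when counts were scaled by TMM (trimmed mean of M values, which lines libraries up by their typical gene). On that scale COL1A1 had 28516, 18828, 7126 and 10101 CPM (counts scaled to a fixed total without length correction), and COL3A1 had 3617, 3372, 5230 and 6491 CPM.

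**Figure D1:**
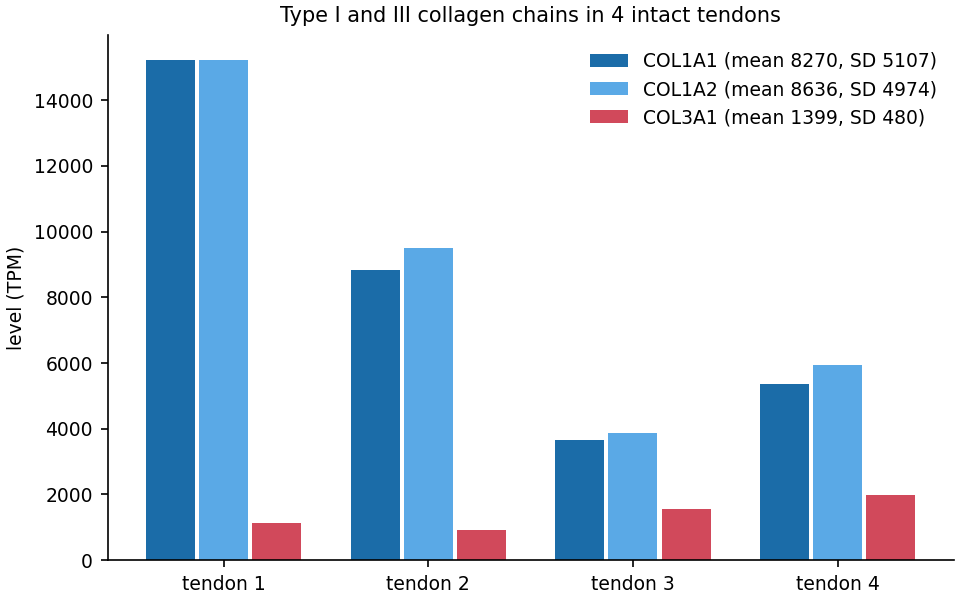
Level in TPM (bars, vertical axis from 0) of COL1A1, COL1A2 and COL3A1 in each of the 4 tendons, with the mean and SD of each gene in the key. Both type I chains fell between 3672 and 15234 TPM with tendon 1 highest, and COL3A1 lay between 918 and 1996 TPM with tendon 4 highest.

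These levels placed type I collagen among the most abundant transcripts of every tendon. By estimated counts COL1A2 ranked 1, 1, 5 and 2 among all genes in tendons 1 to 4, and COL1A1 ranked 2, 4, 11 and 4. In TPM COL1A1 ranked 6, 12, 26 and 18, and COL3A1 ranked 111, 148, 80 and 62. COL1A2 held 4.46% of all counts in tendon 1 (95% Wilson interval 4.45% to 4.47%) and 1.26% in tendon 3 (1.25% to 1.26%). COL3A1 held 0.350% of counts in tendon 1 (0.347% to 0.353%) and 0.690% in tendon 4 (0.687% to 0.693%). Intervals of this kind cover counting error only, and they are far narrower than the spread between tendons. Summed over the 3 chains, the part of TPM was 3.16%, 1.92%, 0.911% and 1.33% by tendon (mean 1.83% ± 0.977, SD, n = 4). The part of counts was 7.57%, 5.15%, 2.54% and 3.69% (mean 4.74% ± 2.17, SD, n = 4).

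The type I chains were close to equal per base of annotated length in all 4 tendons. This balance rests on the short COL1A1 model, and whether that model holds the complete transcript was not tested. COL1A1 was 0.999, 0.931, 0.948 and 0.901 times COL1A2 in TPM. On the log2 scale the ratio averaged -0.08 ± 0.06 (SD, n = 4). The ratio was below 1 in every tendon, and the exact two-sided sign-flip permutation test gave p = 0.125 (adjusted p = 0.125 over 3 pairs of chains), the smallest value that 4 tendons allow. With 200 bases taken off each length, the ratio was above 1 in 1 of 4 tendons (exact permutation test, p = 0.25). The balance can also be expressed as a share of the counts of both chains. COL1A1 held 38.2% of the reads of both chains in tendon 1 (95% Wilson interval 38.1% to 38.3%), 36.6% in tendon 2 (36.5% to 36.6%), 37.0% in tendon 3 (36.9% to 37.1%) and 35.8% in tendon 4 (35.7% to 35.9%). Equal numbers of reads per base of annotated length would give 38.2%. That value uses the same lengths as TPM, so it is not a separate check of the ratio. The interval of tendon 1 held that value, and those of the other 3 tendons lay below it. The differences between tendons therefore exceeded counting error, although the highest ratio was only 1.11 times the lowest. Without length correction COL1A1 had 0.618, 0.576, 0.587 and 0.558 times the counts of COL1A2.

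**Figure D2:**
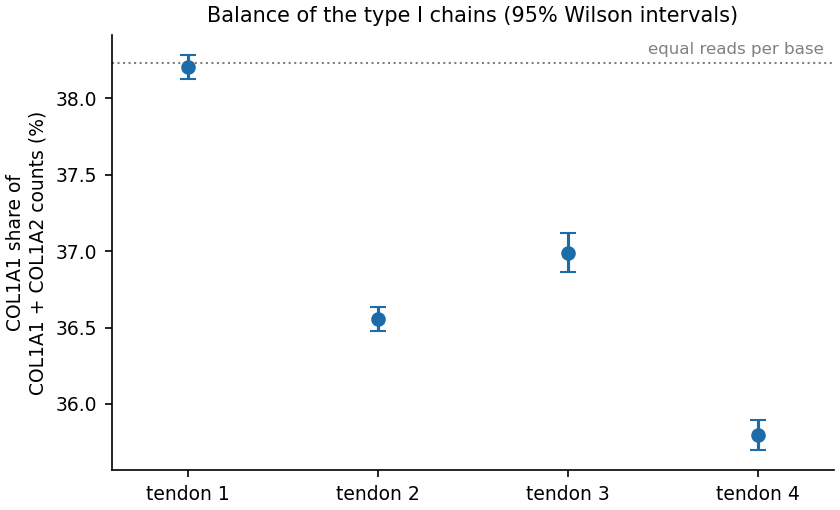
COL1A1 as a percent of the estimated counts of COL1A1 and COL1A2 together (points; the axis does not start at 0) in tendons 1 to 4, with 95% Wilson intervals that cover counting error only. The dotted line at 38.2% marks equal reads per base of annotated length; tendon 1 lies on it and tendons 2 to 4 lie below.

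Type I RNA exceeded type III RNA in all 4 tendons, by a margin that differed widely between them. COL1A1 was 13.6, 9.62, 2.35 and 2.68 times COL3A1 in TPM in tendons 1 to 4 (mean log2 ratio 2.42 ± 1.28, SD, n = 4). For COL1A2 the corresponding ratios were 13.6, 10.3, 2.48 and 2.98 (mean log2 ratio 2.50 ± 1.24, SD, n = 4). Both ratios were above 1 in 4 of 4 tendons, and both had p = 0.125 and adjusted p = 0.125 by the exact sign-flip permutation test. The ratio of COL1A1 to COL3A1 in tendon 1 was 5.79 times that in tendon 3, whereas neither gene alone differed that much between any tendons. COL3A1 made up 3.55%, 4.77%, 17.2% and 15.0% of the TPM of the 3 chains. In counts its part was 4.62% (95% Wilson interval 4.59% to 4.66%), 6.14% (6.11% to 6.18%), 21.3% (21.3% to 21.4%) and 18.7% (18.6% to 18.8%). Tendons 1 and 2 thus had low and similar type III parts, and tendons 3 and 4 high and similar ones. Without length correction COL1A1 remained above COL3A1 in all 4 tendons, with ratios of 7.88, 5.58, 1.36 and 1.56.

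**Figure D3:**
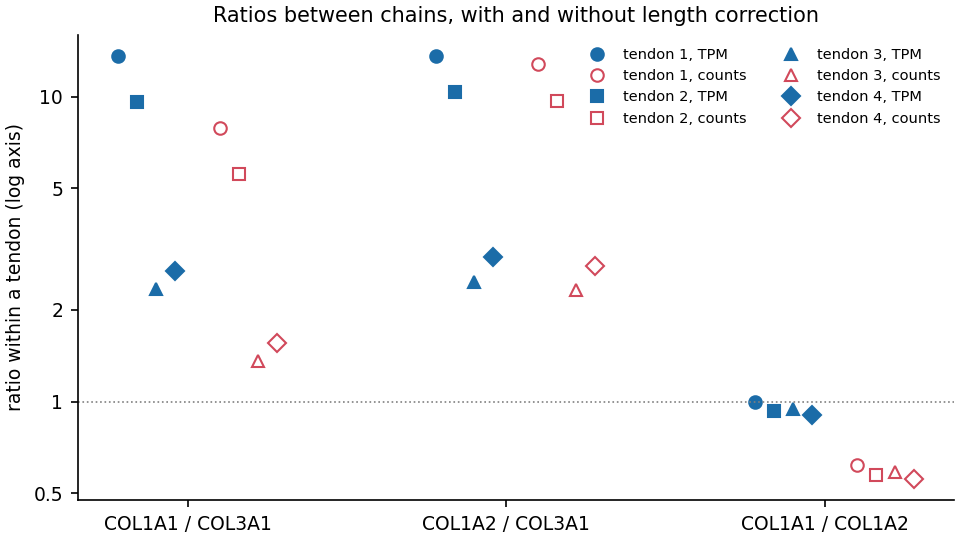
Ratio of each pair of chains within a tendon on a log axis, from TPM (filled) and from estimated counts without length correction (open); the shape marks the tendon and the dotted line a ratio of 1. COL1A1 over COL3A1 runs from 2.35 to 13.6 in TPM, and COL1A1 over COL1A2 from 0.901 to 0.999.

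The type I genes were among the more variable genes of these tendons. The highest tendon was 4.14 times the lowest for COL1A1, 3.94 times for COL1A2 and 2.17 times for COL3A1. The median gene had a range of 1.44-fold over the 12786 genes that averaged 1 TPM or more (genes under 3 counts in a tendon were set to 3 counts there). Of these genes, 4.49% had a range at least as large as that of COL1A1, 5.01% one at least that of COL1A2 and 17.5% one at least that of COL3A1. All 3 chains exceeded a 2-fold range, as did 21.3% of all genes, and COL1A1 exceeded 4-fold, as did 4.83%. The steps of COL1A1 from tendon 1 to 2, from 2 to 4 and from 4 to 3 were 1.72-, 1.65- and 1.46-fold, so no single tendon stood alone. Without tendon 1 the range was 2.41-fold for COL1A1 and 2.45-fold for COL1A2, and without tendon 3 it was 2.56-fold for COL1A2. With TMM scaling the ranges were 4.00-, 3.80- and 1.92-fold, which put COL3A1 under 2-fold. TPM and TMM scales differed by -0.12 on the log2 scale for the median gene of tendon 2 and by at most 0.06 in the other tendons. Each tendon came from a different animal, so the animal, the tissue sampled and the library cannot be told apart.

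Among collagens, the 3 chains dominated. They made up 81.0%, 76.8%, 65.9% and 68.9% of the TPM of the 38 collagen chains with a symbol, a mean of 73.2% ± 6.98 (SD, n = 4). Of the other 35 chains, 28 had a mean of at least 1 TPM. COL3A1 was the third of all collagens, and the next was COL6A1, a beaded-filament chain, at 996 ± 119 TPM (SD, n = 4). COL11A1, a minor fibrillar chain, had 1590, 969, 546 and 658 TPM and therefore exceeded COL3A1 in tendons 1 and 2. Among the other 28 chains, 13 had a range of at least 2-fold, beside 21.3% of all genes, and 3 had one at least as large as that of COL1A1, beside 4.49%. These 3 were COL11A2, COL10A1 and COL21A1, named after their values were seen. The highest tendon was tendon 1 for 10 of these chains, tendon 2 for 2, tendon 3 for 4 and tendon 4 for 12. Over all genes tested the corresponding shares were 38.6%, 12.5%, 16.7% and 32.3%.

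Genes that make, modify, bind or break down fibrillar collagen were described from 7 lists. Of 115 distinct genes with an entry, 107 had a mean of at least 1 TPM, and 30 of these (28%) had a range of at least 2-fold, beside 21.3% of all genes. Their median range was 1.62-fold, against 1.44-fold for all genes. Without tendon 1, 15 of the 107 reached 2-fold, beside 13.8% of all genes. Tendon 1, where type I RNA was highest, was the highest tendon for 63 of the 107 (58.9%, beside 38.6% of all genes). With TMM scaling this was 54 (50.5%, beside 30.6%). The complete order of tendons seen for COL1A1 (1, 2, 4, 3) occurred in 15 of the 107 (14%, beside 3.09% of all genes), and in 16 with TMM scaling (15%, beside 3.24%). The order seen for COL3A1 (4, 3, 1, 2) occurred in 5 (4.67%, beside 7.42%) in TPM and in 0 with TMM scaling (beside 4.37%).

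**Figure D4:**
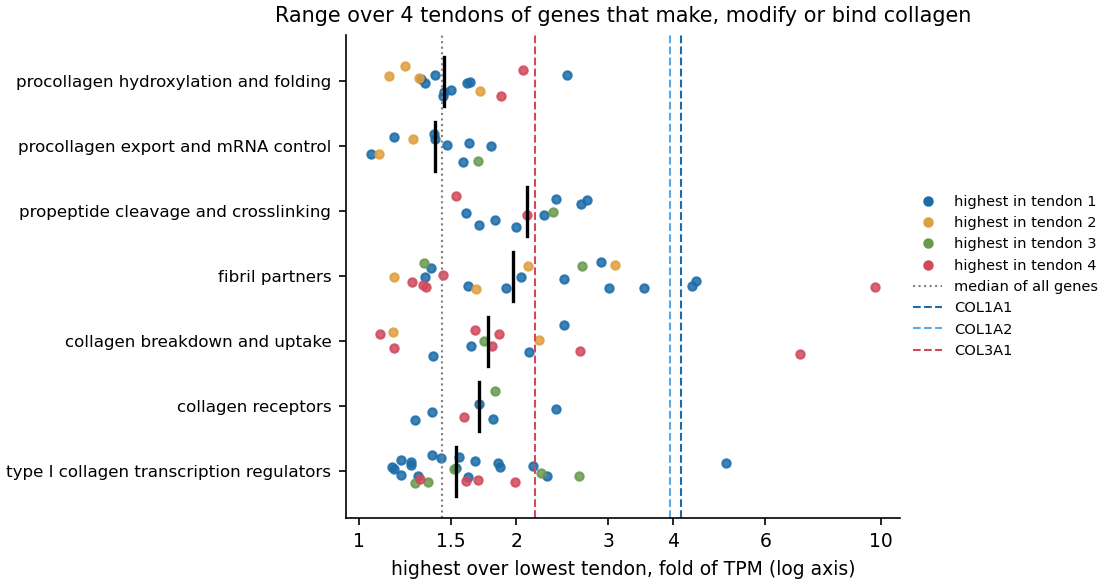
Range over the 4 tendons (highest over lowest TPM, log axis) of each gene that averaged 1 TPM or more in 7 lists (points, coloured by the highest tendon), with the list median as a black bar. Dashed lines mark COL1A1, COL1A2 and COL3A1, and the dotted line the median of all genes, 1.44-fold; 5 of the 107 genes lie at or beyond the COL1A1 line.

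Genes listed as regulators of type I collagen transcription had a median range of 1.54-fold, beside 1.44-fold for all genes. The list holds TGF-beta ligands and receptors and CTGF as well as transcription factors. Of 28 regulators with an entry, 27 averaged 1 TPM or more, and 5 of these had a range of at least 2-fold, a share near the 21.3% of all genes. The 5 were MKX, EGR1, KLF4, SKIL and SOX9. MKX, a tendon homeobox gene, had 169, 117, 90.4 and 73.8 TPM, highest in the same tendon as type I collagen but lowest in tendon 4. EGR1, an immediate early gene that acts in tendon, had 146, 29.1, 58.7 and 41.8 TPM. CTGF, a matricellular growth factor gene, had the highest mean of this list, 444 ± 103 TPM (SD, n = 4). MKX was next, and KLF6 and TGFBR2, a TGF-beta receptor gene, stood at 104 ± 19.7 and 104 ± 13.9 TPM (SD, n = 4). In TPM, none of the 27 had the tendon order of COL1A1, which is near the 3.09% of all genes that had it. SCX, TGFB1, RFX5 and SKI had no entry under those symbols.

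Of the hydroxylation and folding genes, 2 of 15 had a range of at least 2-fold, beside 21.3% of all genes, and their median of 1.46-fold was near the 1.44-fold of all genes. These 2 were SPARC and P4HA3. SPARC, a collagen-binding glycoprotein and chaperone, had 15830.4, 12317.5, 6333 and 9694 TPM, in the tendon order of COL1A1. P4HA3, a prolyl hydroxylase subunit, had 41.4, 40.0, 45.7 and 82.5 TPM, in the order of COL3A1 in TPM but not with TMM scaling. P4HA1, the main prolyl hydroxylase catalytic subunit, had 416, 401, 254 and 258 TPM, and CRTAP and FKBP10, a pair of folding factors, shared the order of COL1A1 with it. PPIB, the prolyl isomerase cyclophilin B, stood at 585 ± 65.5 TPM and the chaperone gene HSPA5 at 482 ± 124 TPM (SD, n = 4). The collagen chaperone gene SERPINH1 and the hydroxylase subunit gene P4HB had no entry. Relative to type I RNA, P4HA1 had 2.73, 4.54, 6.92 and 4.81 TPM per 100 TPM of COL1A1. The low value in tendon 1 follows from COL1A1 itself and is not a trait of P4HA1. COL1A1 was at least 1.72-fold higher in tendon 1 than in any other tendon, while P4HA1 ranged only 1.63-fold.

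Export and mRNA control genes, such as SEC24D, a coat protein of vesicles leaving the endoplasmic reticulum, had a median range of 1.40-fold, beside 1.44-fold for all genes. Of these genes 0 of 11 reached 2-fold, beside 21.3% of all genes. SEC24D had 130, 101, 80.0 and 91.1 TPM, in the order of COL1A1. PCBP1, an RNA-binding protein gene, had the highest mean here, 389 ± 14.2 TPM, followed by SEC31A at 121 ± 19.2 TPM (SD, n = 4). LARP6, which binds type I and III collagen mRNAs, had 86.2, 83.9, 88.6 and 52.4 TPM, lowest in tendon 4.

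Of the propeptide cleavage and crosslinking genes, 6 of 11 had a range of at least 2-fold, beside 21.3% of all genes, and the median was 2.10-fold, beside 1.44-fold. The 6 were ADAMTS2, ADAMTS3, PCOLCE2, LOX, LOXL1 and LOXL3. Without tendon 1, only PCOLCE2 and LOXL1 of this list stayed at 2-fold or more, beside 13.8% of all genes. ADAMTS2, the main type I procollagen N-proteinase, had 198, 120, 74.4 and 99.0 TPM, in the order of COL1A1. Its level per 100 TPM of COL1A1 stayed between 1.30 and 2.03 TPM. BMP1, the C-proteinase, had 244, 152, 154 and 158 TPM. LOX, the main crosslinking oxidase, had 1535, 817, 721 and 644 TPM, and LOXL2 stood at 295 ± 71.3 TPM (SD, n = 4). PCOLCE2, an enhancer of the C-proteinase, was highest in tendon 3 at 435 TPM, where type I RNA was lowest. LOXL1 had the tendon order of COL3A1 in TPM but not with TMM scaling, with 69.4, 65.2, 74.7 and 137 TPM.

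Fibril partners held 6 of the 15 genes in the tendon order of COL1A1. Of 22 partners 11 had a range of at least 2-fold, beside 21.3% of all genes, and the median was 1.98-fold. The 6 in the order of COL1A1, which 3.09% of all genes had, were COL5A2, COL11A1, COL2A1, COL12A1, THBS1 and THBS2. The minor fibrillar chains did not vary alike. COL11A1 kept a level of 10.4, 11.0, 14.9 and 12.3 TPM per 100 TPM of COL1A1. COL5A2, which codes for a chain of the type V collagen that nucleates type I fibrils, ranged only 1.34-fold itself (682, 560, 511 and 535 TPM). Per 100 TPM of COL1A1 it therefore ran from 4.48 TPM in tendon 1 to 13.9 TPM in tendon 3. COL12A1, a fibril-associated collagen of tendon, had 1002, 774, 406 and 682 TPM. DCN (decorin), the most abundant proteoglycan gene of the list, had 19666, 13584, 15151 and 9626 TPM, so it was higher in tendon 3 than in tendon 2, unlike type I. FMOD (fibromodulin) was highest in tendon 2 at 9278 TPM, as were PRELP at 8685 TPM and THBS4, a thrombospondin of tendon matrix, at 7922 TPM. LUM (lumican), a proteoglycan that binds the same fibril surface as fibromodulin, ran the other way, with 27.7, 39.0, 169 and 269 TPM. BGN (biglycan) was the 1 partner in the order of COL3A1 in TPM, beside 7.42% of all genes, with a narrow range of 1.33-fold. With TMM scaling BGN did not have that order. COL5A1, COL6A3, TNXB and COMP had no entry.

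Collagen breakdown and uptake genes had a median range of 1.77-fold, with 5 of 14 at 2-fold or more, beside 21.3% of all genes: MMP2, MMP13, MMP16, PLAU and TIMP4. In TPM none had the tendon order of COL1A1, near the 3.09% of all genes. CTSB and TIMP1 had that of COL3A1 in TPM, beside 7.42% of all genes, but not with TMM scaling. CTSK, the collagen-degrading cathepsin K, was nearly level at 807, 842, 726 and 838 TPM. MMP2 (gelatinase A) had 679, 804, 363 and 619 TPM, and TIMP3, a protease inhibitor, 581, 412, 662 and 381 TPM. Per 100 TPM of COL1A1, CTSK had 5.30, 9.53, 19.8 and 15.6 TPM. MMP14, a membrane collagenase, had 49.8, 53.2, 51.0 and 89.6 TPM. The secreted collagenase genes were scarce, with MMP13 at 1.87 ± 0.916 TPM and MMP1 at 0.737 ± 1.01 TPM (SD, n = 4), and MMP8 had 0 counts in all 4 tendons, which allows up to 3 counts in each. Of the collagen receptors 1 of 7, ITGA2, reached 2-fold, beside 21.3% of all genes, and the median was 1.70-fold. The integrin beta subunit gene ITGB1 led them at 619 ± 62.6 TPM, followed by the collagen receptor kinase gene DDR2 at 77.0 ± 18.7 TPM, ITGA11 at 48.9 ± 6.94 TPM and ITGA2 at 40.0 ± 15.8 TPM (SD, n = 4).

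The genes whose pattern over the 4 tendons was most like each chain were found among 7007 other genes that had a symbol and averaged 10 TPM or more. Likeness was the root mean square difference of log2(TPM + 1) after each gene was centred on its own mean over 4 tendons, and 4 tendons carry little information on likeness. COL1A2 was the nearest of all 7007 genes to COL1A1, at 0.05, and COL1A1 the nearest to COL1A2. The median gene stood at 0.77 from COL1A1. COL3A1 was at 1.11 from COL1A1, rank 6689 of 7007. After the partner chain, the nearest to COL1A1 were COL2A1 (0.14), MATN4 (0.17), COL11A1 (0.20), RBPJL (0.21) and CNTFR (0.22). For COL1A2 they were COL2A1 (0.09), MATN4 (0.13), RBPJL (0.18), COL11A1 (0.19) and SDC4 (0.20). COL2A1, the cartilage collagen gene, had 281, 195, 79.9 and 130 TPM, or 1.85 to 2.43 TPM per 100 TPM of COL1A1. MATN4 codes for matrilin-4, a matrix adaptor protein, RBPJL for a transcription factor, SDC4 for syndecan-4, a cell surface proteoglycan, and CNTFR for a cytokine receptor. MATN4, RBPJL and SDC4 lay next to each other on scaffold GL018725, with 2091 bases between the models of MATN4 and RBPJL and 8554 between those of RBPJL and SDC4, so they are not separate pieces of evidence.

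The nearest genes to COL3A1 were PALD1 (0.03), CCDC28A (0.04), EBF2 (0.07), NID2 (0.08) and HIST1H1C (0.09), a histone gene. EBF2 is a transcription factor gene of mesenchymal and fat precursor cells, and NID2 codes for nidogen-2, a basement membrane protein. These genes stood at 14.7, 10.1, 14.6, 29.7 and 12.7 TPM, far below COL3A1. The median gene stood at 0.44 from COL3A1, against 0.77 from COL1A1 and 0.74 from COL1A2. The typical gene was thus nearer to COL3A1 than to the type I chains, and close matches were not counted.

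**Figure D5:**
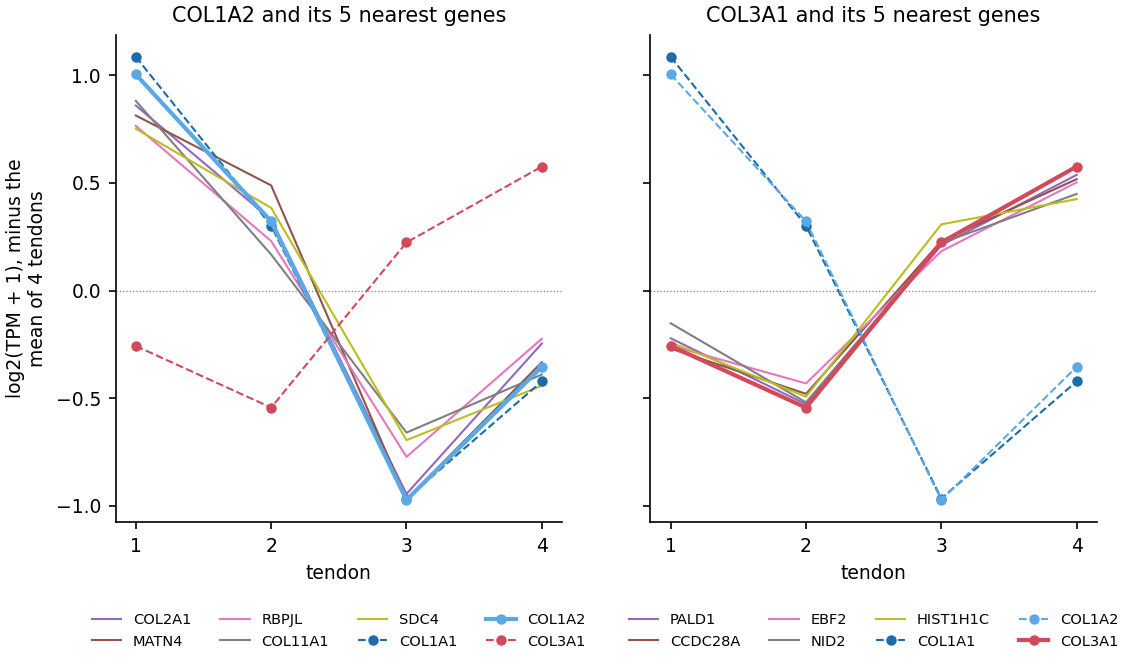
Deviation of log2(TPM + 1) from each gene's own mean over the 4 tendons for the 3 chains (points) and for the 5 genes nearest to COL1A2 (left) and to COL3A1 (right); lines only join the values of 1 gene. COL1A1 and COL1A2 nearly coincide, with a root mean square difference of 0.05, and COL3A1 runs apart from them at 1.11 from COL1A1.

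Estimated counts that carry fractions arise where reads are divided among similar transcripts. COL3A1 had whole counts in the 2 tendons where the file prints enough digits to tell (69154 in tendon 1 and 97002 in tendon 2). Values of 100000 or more carry no decimals in the file, so this could not be read for the type I chains. COL2A1 had whole counts in tendons 1 and 2 and fractional ones in tendons 3 and 4 (6659 and 11913 after rounding), and COL5A2 had fractional counts in all 4. Sharing of reads between related collagen transcripts was not tested.

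Markers of tenocytes and of other cell types were measured beside the chains. In bulk tissue, fewer cells of a type and less RNA per cell cannot be told apart. Tenocyte markers, 7 of 8 with an entry and none at 0, summed to 35391, 31212, 24883 and 17766 TPM in tendons 1 to 4. DCN, FMOD and THBS4 made up most of these sums. TNMD (tenomodulin), a marker of mature tenocytes, had 158, 169, 31.7 and 187 TPM, and TNC (tenascin-C) had 107, 112, 74.0 and 115 TPM, both highest in tendon 4 and lowest in tendon 3. Skeletal muscle markers, 10 of 13 with an entry, summed to 7860, 30857, 16073 and 20495 TPM, lowest in the tendon with the most type I RNA and highest in tendon 2. With the muscle markers left out of the total, the range of COL1A1 was 4.11-fold, against 4.14-fold with them. These markers were a small part of the total, so that setting could hardly move the range. The part of muscle in the type I pattern was not tested. The summed markers of fat, vessels and leukocytes, like COL3A1, had their lower values in tendons 1 and 2. Among the single markers LPL did not, with 96.5 TPM in tendon 2 and 95.9 TPM in tendon 3. The share of all genes with that pattern was not computed, and tendon 4 was the highest tendon for 32.3% of all genes. Adipocyte markers, 5 of 6, summed to 247, 400.3, 542 and 1028 TPM. Endothelial markers, 5 of 5, summed to 150.1, 192, 262 and 263 TPM, and pericyte and smooth muscle markers, 4 of 5, to 208, 267, 328 and 318 TPM. Macrophage and lymphocyte markers, 6 of 6, summed to 58.3, 47.2, 113 and 152 TPM. Of the 5 with a mean of at least 1 TPM, 4 had the tendon order of COL3A1 in TPM, beside 7.42% of all genes. Their order was not recounted with TMM scaling, where 4.37% of all genes had that of COL3A1. None of these markers was at 0 in any tendon, and their part in the pattern of COL3A1 was not tested. Cartilage markers, 5 of 5, summed to 366, 256, 152 and 176 TPM, an order set by COL2A1, their largest member. Of the 4 that averaged 1 TPM or more, only COL2A1 had the tendon order of type I collagen, beside 3.09% of all genes. ACAN (aggrecan) had 76.3, 53.0, 68.2 and 41.1 TPM. The part of these markers in the type I pattern was not tested. Bone markers, 5 of 5, summed to 111, 107, 163 and 585 TPM, mostly SPP1 (osteopontin), and SP7, the osteoblast transcription factor gene, was at most 0.155 TPM and had 0 counts in tendon 4. Nerve and Schwann cell markers, 5 of 5, summed to between 236 and 326 TPM, and the 2 sheath and synovial fibroblast markers with an entry, of 5, to between 104 and 145 TPM.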

How the data were processed

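Polyadenylated RNA of 4 intact semitendinosus tendons, 1 per rabbit, was sequenced after TruSeq library preparation, per the labels' protocols. The authors deposited estimated counts for each transcript, without scaling. The submitters' processing notes name kallisto 0.42.4, bcl2fastq, FastQC and the build OryCun2.0, and give no roles. The annotation version, filters and use of strand are not given in the sources used here. Columns were matched to tendons by their descriptions, and all 4 tendons form 1 group.

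Per the file headers, annotated transcript length in bases was deposited beside the counts. TPM was computed from counts and that length and summed per gene over all 20294 genes; 13225 have a symbol. For each pair of chains the log2 ratio per tendon entered a sign-flip permutation test (exact, two-sided), with Benjamini-Hochberg adjustment over 3 pairs; 4 tendons cannot give a p below 0.125. A range over tendons is the highest over the lowest TPM, with genes under 3 counts set to 3 counts. With 1 group, no test between tendons was possible. TMM factors came from edgeR 4.0.16 and size factors from DESeq2 1.42.0 (R 4.3.3), on counts rounded to whole numbers. The rest was done in Python 3.11.15 with pandas 2.3.3, numpy 2.4.6 and scipy 1.17.1. The range and likeness steps were tested on simulated data. Intervals are 95% Wilson intervals.

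The genes named are the 3 chains, up to 4 members per list by mean TPM and those behind small counts or discussed beside type I RNA, the 5 genes nearest to each chain, and cell type markers. The members, lists and tests were chosen with earlier results of these data known. Protein and promoter sequences were not used here.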

Additional observations from a re-analysis of the deposited data

Results flagged for a closer look

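Of 45 values examined (the 3 chains, their ratios and shares, and the leading genes of each list), 1 stood apart from the other tendons by Dixon's ratio, where chance gives about 2.25. It was CTSB, a lysosomal cathepsin gene, which was highest in tendon 4 with a ratio of 0.844, although its range over the 4 tendons was only 1.10-fold. No value of COL1A1, COL1A2 or COL3A1 stood apart.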

How the results depend on the processing

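No paired analysis was possible because all 4 tendons form 1 group. The sign of the mean log2 ratio of each of the 3 pairs of chains held under the alternatives run (no length correction, a shorter length, the leading transcript, 3 counts added, each tendon left out). Since each chain has 1 annotated transcript, the leading transcript could only repeat the main value. Adding 3 counts could hardly move counts of 69154 or more, so these settings were no real check. Mean log2 ratios were 1.64 to 2.82 for COL1A1 to COL3A1, 2.08 to 2.90 for COL1A2 to COL3A1 and -0.78 to -0.05 for COL1A1 to COL1A2. The percent of TPM in the 3 chains, 1.83%, was 4.74% of counts and 0.540% with 200 bases taken off each length. In that last setting the 171 transcripts of at most 200 bases were given a length of 1 base and took 45.9% of the total. With transcripts under 400 bases left out, a setting chosen after seeing the data, it was 1.68%. Leaving out a tendon gave 1.39% to 2.14%. The number of list genes with a 2-fold range, 30, was 5 at 4-fold, and 15 to 26 with each tendon left out; it was 28 for genes that averaged 10 TPM or more, 34 with no filter and 29 with TMM scaling. The range of COL3A1 fell under 2-fold with TMM scaling (1.92), DESeq2 size factors (1.89), and without tendon 2 (1.78) or tendon 4 (1.70). The range of COL1A1 fell under 4-fold in CPM (3.74), with mitochondrial genes left out of the total, and without tendon 1 or 3 (2.41 and 2.84).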
